A study of Homo sapiens with 9 samples.

Results

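The regions described here were stretches of the genome at which HIF-1α was called in the peak list of exactly 1 of 3 hypoxia libraries. Intervals of the 6 deposited lists on chromosomes 1 to 22 and X were joined into regions where they shared at least 1 bp, and 9376 regions held a hypoxia interval. Of these, 5248 held an interval of 1 hypoxia library only, 3049 of 2 and 1079 of all 3. The members were thus chosen by the authors' calls. Their number, reads, fold, p, width and local background are therefore descriptions, and no test was made on them.

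The libraries are chromatin immunoprecipitations with sequencing (ChIP-seq) for HIF-1α from the human line SK-N-BE(2), which was derived from a neuroblastoma and carries MYCN amplification. Cells had spent 48 hours at 1% oxygen (hypoxia 1, 2 and 3) or at 21% oxygen (normoxia 1, 2 and 3). Input chromatin came from 3 libraries at 21% oxygen and none at 1%. Which control, if any, the caller was given for each list is not stated in the sources used here. The labels do not say whether libraries of a group came from separate cultures, and 1 cell line was used.

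HIF-1α is the oxygen-labile subunit of the transcription factor HIF-1. In oxygenated cells it is hydroxylated on prolines, recognised by the VHL ubiquitin ligase and degraded. In low oxygen it accumulates, pairs with ARNT and binds hypoxia response elements, which lie near genes of glycolysis, angiogenesis and pH control among others. In neuroblastoma the MYCN locus on the short arm of chromosome 2 can be present in many copies, and it adds DNA to input and immunoprecipitate alike. A peak caller such as MACS2 calls an interval where reads exceed a local background, which is taken from a control library where one is given, so whether a place is called in a given library depends on its reads, its local background and the list's threshold.

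The 3 libraries contributed very unequal numbers of such regions. Hypoxia 1 held 105 of them, hypoxia 2 held 1686 and hypoxia 3 held 3457, a mean of 1749 ± 1677 (SD, n = 3). These were 8.44% of the 1244 regions of hypoxia 1 (95% exact Clopper-Pearson interval 6.96 to 10.1%), 29.2% of the 5767 regions of hypoxia 2 (28.1 to 30.4%) and 45.7% of the 7572 regions of hypoxia 3 (44.5 to 46.8%). These bounds reflect counting alone, with each region taken as independent. Hypoxia 3 alone gave 65.9% of the members and hypoxia 1 gave 2.0%. The counts depend on which lists are set side by side: without hypoxia 3, hypoxia 1 had 165 and hypoxia 2 had 4736 regions of its own, and without hypoxia 2, hypoxia 3 had 6478. Where 50% reciprocal overlap was required to join intervals, hypoxia 1 had 979, hypoxia 2 had 2239 and hypoxia 3 had 4020. The intervals of hypoxia 1 are narrower, and the part of width in its count was not tested. Members were 56.0% of all regions with a hypoxia call, a share that the rule itself sets.

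The order of the shares followed the lengths of the lists, which held 1392, 5827 and 7605 distinct intervals. When each list was cut to its 1392 intervals of smallest p, the order turned around. This cut kept the whole of hypoxia 1, with its weakest calls, but only the part of smallest p of the other lists. Regions called in 1 list then made up 25.4% of hypoxia 1 (318 of 1253), 19.2% of hypoxia 2 (267 of 1391) and 17% of hypoxia 3 (236 of 1390). In normoxia, where the lists are far shorter, the regions called in 1 normoxia library were 33 of 59 in normoxia 1 (55.9%), 4 of 27 in normoxia 2 (14.8%) and 67 of 96 in normoxia 3 (69.8%).

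**Figure D1:**
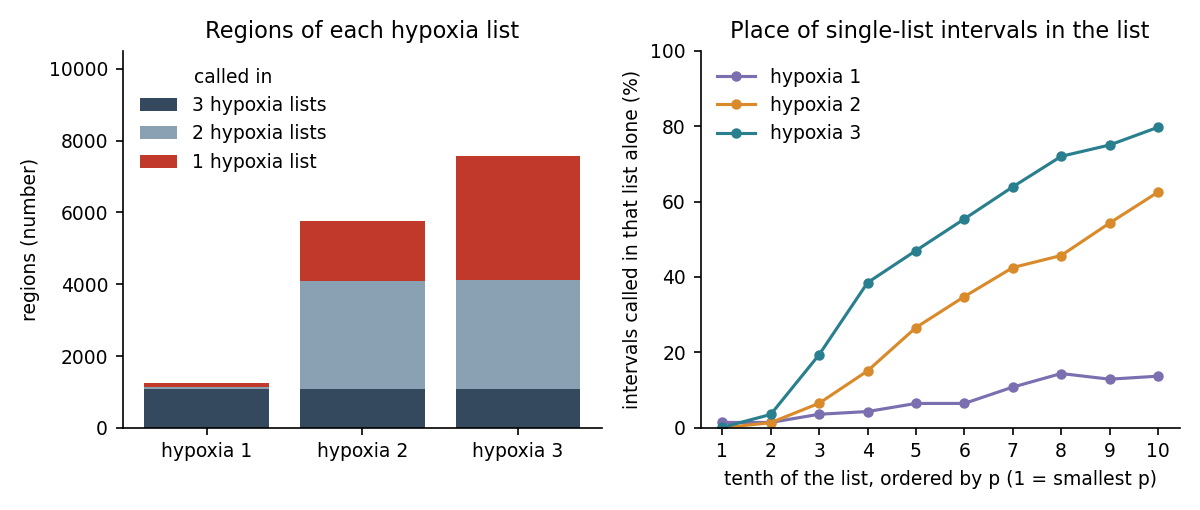
Left, number of regions in each hypoxia list, coloured by how many hypoxia lists called the region: 105, 1686 and 3457 were called in 1 list. Right, percent of intervals called in that list alone (y axis) in each of 10 equal steps of the list ordered by p (x axis); in the step of largest p the share was 13.7% in hypoxia 1, 62.5% in hypoxia 2 and 79.7% in hypoxia 3.

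Within hypoxia 2 and hypoxia 3 the members lay toward the weak end of the list. The first member stood at rank 912 by p in hypoxia 2 and at rank 627 in hypoxia 3, and the first 1000 intervals held 2 and 1 of them. Of the 10 equal steps of each list, in the step of smallest p, none of the hypoxia 2 intervals and 0.131% of the hypoxia 3 intervals were members. In hypoxia 1 the first member stood at rank 108 and the first 1000 intervals held 50. The lists hold 1392, 5827 and 7605 intervals, so these ranks and counts are not on 1 scale between libraries. By equal steps, the share in hypoxia 1 went from 1.43% in the first to 13.7% in the last.

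Reads at the summit were few at most members. A summit is the base with most reads in an interval, and its reads and local background were solved from the deposited fold and −log10 p. Both are counted over the length to which the caller extended each read, taken as the shortest interval in the list, which was 48 bp in hypoxia 1, 155 bp in hypoxia 2 and 167 bp in hypoxia 3. Read numbers and widths of hypoxia 1 therefore do not share a scale with those of the other libraries. The depth, as genome-wide background reads per kb, was more alike, at 6.62, 5.94 and 5.31.

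In hypoxia 2 the median member had 11 reads, compared with 15 at regions of 2 lists and 35 at regions of 3 lists. In hypoxia 3 these medians were 11, 16 and 40 reads. Members with 10 to 14 reads formed 60.7% of those in hypoxia 2 and 49.3% of those in hypoxia 3, and members with 20 reads or more formed 2.31% (39) and 4.25% (147). The median fold, which is the reads plus 1 over the local background plus 1, was 5.35 at members of hypoxia 2 and 5.3 at members of hypoxia 3. It reached 14.1 and 16.8 at regions called in all 3 lists.

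Members were also narrow. Their median width was 191 bp in hypoxia 2 and 207 bp in hypoxia 3, compared with 410 bp and 459 bp at regions of 3 lists. The shortest length a list allows was that of 274 members of hypoxia 2 and 634 members of hypoxia 3. More than 1 summit was listed in 1.13% and 1.79% of them, against 9.07% and 10.2% of the intervals of 3-list regions. None of the 105 members of hypoxia 1 had more than 1 summit, against 26.0% of its intervals in 3-list regions.

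**Figure D2:**
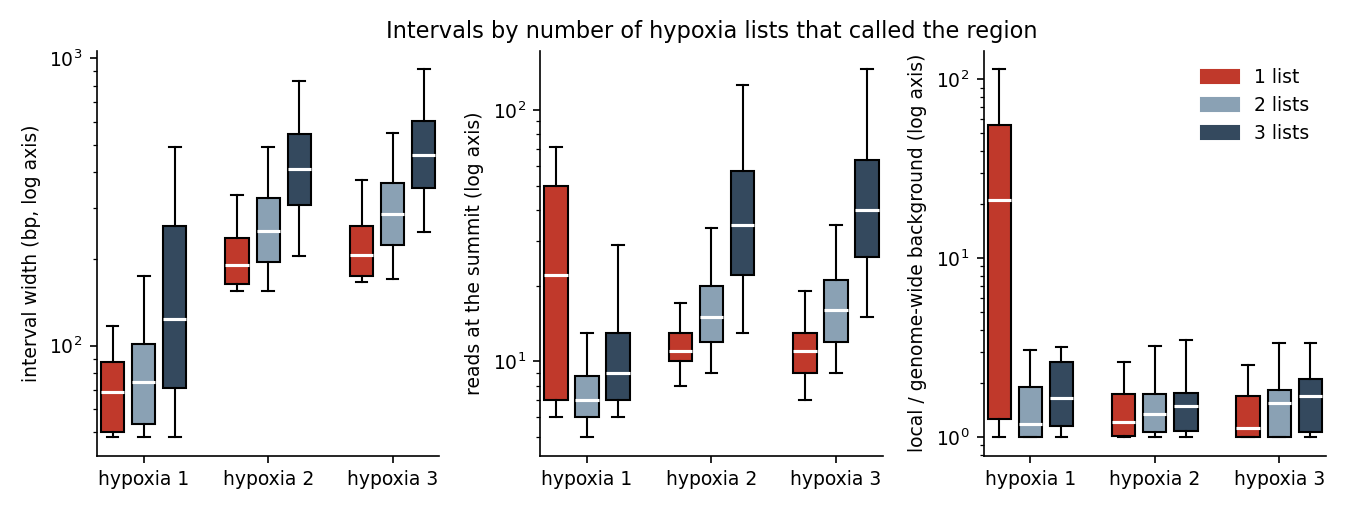
Interval width (bp), reads at the summit and local background over genome-wide background (all on log axes) for intervals of each hypoxia library, split by the number of hypoxia lists that called the region; boxes span the quartiles, white lines are medians and whiskers run from the 5th to the 95th percentile. Members (1 list) of hypoxia 2 and 3 sit lowest in width and reads, while those of hypoxia 1 have a median background ratio of 21.2.

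The strongest members were not at the limit of detection. By p, the first in hypoxia 3 was chromosome 22: 46434608 to 46434903 (hg19, as are all positions here), with 37 reads over a local background of 1.17 reads, fold 17.5 and −log10 p 42.6. It lay 30.5 kb from the nearest replicated region, that is, a region called in at least 2 hypoxia lists. The next were chromosome 6: 166904261 to 166904611, with 26 reads and fold 13.5, and chromosome 16: 2732315 to 2732549, with 28 reads and fold 12.2.

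In hypoxia 2 the member of smallest p was chromosome 2: 29854955 to 29855164, with 28 reads, fold 11.9 and −log10 p 26.9. Chromosome 6: 123406582 to 123406820 followed with 24 reads and fold 13, then chromosome 1: 210758173 to 210758423 with 26 reads and fold 11.1. None of these 6 regions had a call in normoxia, but such calls were rare at members in general (20 of 5248, 0.381%). No gene is named for them because no annotation of hg19 was used here.

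How many reads the other library would have needed was worked out for hypoxia 2 and 3, whose extensions are close. Each member's reads and local background were scaled by the ratio of genome-wide backgrounds, 0.963 from hypoxia 2 to 3 and 1.04 from 3 to 2, and set against the weakest p found in the other list. A call there needed a median of 7 reads for members of either library. The 37 reads at the first hypoxia 3 region compare with 8 needed in hypoxia 2, and the 28 reads at the first hypoxia 2 region compare with 8 needed in hypoxia 3. Since each member had passed its own list's threshold and the weakest −log10 p of these lists was close, 4.43 and 4.23, reaching the need was nearly fixed by the rule; it was met at 96.9% of the members of either library (1633 and 3351).

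A margin of 2 times the need was rarer among members. It was met at 11.6% of members of hypoxia 2 (196) and 11.3% of hypoxia 3 (391), against 44.7% and 47.3% of the intervals of regions called in 2 lists. The calculation assumes that the other library had the same local background ratio at the place. The reads that it actually had there are not in the lists, so an uncalled place may still have held reads.

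Near-misses between lists accounted for few members. In hypoxia 2, 125 members (7.41%) lay within 500 bp of a hypoxia 3 interval, and in hypoxia 3, 187 members (5.41%) lay within 500 bp of a hypoxia 2 interval. The median gaps were 57071 and 57520 bp. The members closest to being joined were chromosome 1: 208902150 to 208902401 in hypoxia 2, which abutted a hypoxia 3 interval with a gap of 0 bp (10 reads, fold 4.01), chromosome 16: 30075250 to 30075500 in hypoxia 2 with a gap of 2 bp (13 reads, fold 7.02), and chromosome 21: 46514145 to 46514311 in hypoxia 3 with a gap of 2 bp (7 reads, fold 4.24).

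Just outside the rule were regions joined by a few bases. Chromosome 22: 39928764 to 39929140 was joined by 5 bp between hypoxia 2 (10 reads) and hypoxia 3 (14 reads). Chromosome 19: 12893623 to 12893945 was joined by 8 bp (8 and 10 reads), and chromosome 9: 111992551 to 111992761 by 10 bp between hypoxia 3 (11 reads) and hypoxia 1 (5 reads). In hypoxia 2 and 3, the 3 regions just inside had 7 to 13 reads and the 3 just outside had 8 to 14. Just inside, these are the member's own reads only, and just outside those of both joined intervals. The 5 reads of hypoxia 1 are on another scale.

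Distance to replicated regions differed by library. The median member lay 383 kb from the nearest replicated region in hypoxia 1 (quartiles 47.0 and 1062 kb), 118 kb in hypoxia 2 (24.4 and 418 kb) and 79.6 kb in hypoxia 3 (17.7 and 263 kb). Replicated regions lay a median of 81.8 kb from the next replicated region. Hypoxia 3 members were thus spaced from replicated regions much as those were from each other, with 54.5% against 54.2% within 100 kb. For hypoxia 2 the share within 100 kb was 47.2% and for hypoxia 1 it was 32.4%.

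Few members flanked a replicated region closely. Within 1 kb lay 8 members of hypoxia 1 (7.62%), 113 of hypoxia 2 (6.7%) and 218 of hypoxia 3 (6.31%), and 6.32% of replicated regions had another replicated region within that distance. Reads hardly changed with distance in the longer lists. The median was 11 reads at members of hypoxia 2 both within 1 kb and beyond 1 Mb, and in hypoxia 3 it was 11 and 10. The most distant members were X: 94163289 to 94163477 in hypoxia 3, at 12753 kb with 7 reads, X: 31361636 to 31361790 in hypoxia 2, at 6870 kb with 11 reads, and chromosome 21: 9827121 to 9827168 in hypoxia 1, at 8134 kb with 11 reads.

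**Figure D3:**
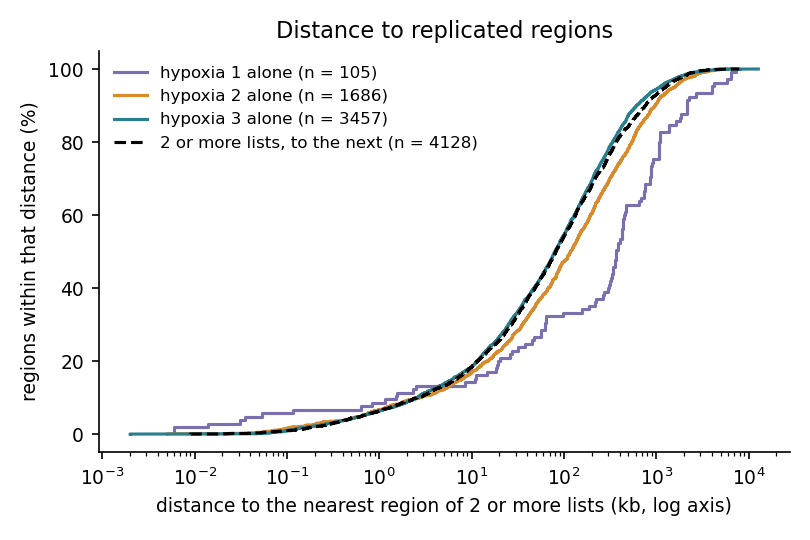
Cumulative percent of regions (y axis) within a given distance of the nearest region called in 2 or more hypoxia lists (x axis, kb, log axis; a gap of 0 bp is drawn at 1 bp), for members of each library and, dashed, for replicated regions to the next one. The hypoxia 3 curve runs close to the dashed line (medians 79.6 and 81.8 kb), and the hypoxia 1 curve lies to its right (median 383 kb).

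The members of hypoxia 1 fell into 2 kinds by local background. At 60 of 105 (57.1%, exact interval 47.1 to 66.8%) the local background was at least 10 times the genome-wide one, here called high. Over all hypoxia intervals the share was 1.45%, and in hypoxia 1 it was 6.45% (4 of 62) at regions of 2 lists and 0.98% (12 of 1225) at regions of 3 lists. In hypoxia 2, 4 of 1686 members were high (0.237%), and in hypoxia 3, 54 of 3457 (1.56%). At regions of 2 lists the share was 1.15% in both hypoxia 2 (35 of 3038) and hypoxia 3 (35 of 3056). At regions of 3 lists it was 0.453% and 0.549%. Background took part in the call, so these shares carry no test.

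The 60 high regions of hypoxia 1 had many reads and a small excess. Their median was 44.5 reads over a background 54.4 times the genome-wide one, with a median fold of 2.46 and a median distance of 753 kb to a replicated region. The other 45 had a median of 7 reads, a background ratio of 1.27, a fold of 5.62 and a distance of 55.9 kb. The median distance of 383 kb for hypoxia 1 therefore mixed 2 sets with unlike distances. High regions of hypoxia 1 lay on 15 chromosomes, with 10 on chromosome 16, 9 on chromosome 8 and 7 on chromosome 10. Of the 68 megabases with a member of hypoxia 1, high or not, 56 held only 1. Some high members gathered: 8 members lay at 46 to 47 Mb of chromosome 16, 6 at 42 to 43 Mb of chromosome 10 and 5 at 49 to 50 Mb of chromosome 4, all of them high. As background, these stretches of hg19 border centromeres, which are rich in repeats; no annotation of repeats was used here.

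The high region of smallest p in hypoxia 1 was chromosome 17: 22262660 to 22262781, with 59 reads, fold 5.4, −log10 p 25.9 and a background ratio of 31.8. Chromosome 22: 18878483 to 18878626 was next, with 49 reads and fold 5.83. Among those without high background, chromosome 7: 157254002 to 157254233 stood first, with 16 reads, fold 12.1 and rank 161 in the list. It was followed by chromosome 7: 57963620 to 57963669 with 18 reads and fold 10.1, and by chromosome 2: 223197520 to 223197569 with 10 reads and fold 7.95.

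Calls in normoxia were few and unequal between the libraries. This measure was not used by the rule, except that a normoxia interval can bridge intervals. Of the 5248 members, 20 (0.381%, exact interval 0.233 to 0.588%) overlapped a normoxia interval, against 1.19% of all regions with a hypoxia call, 0.525% of regions of 2 lists (16 of 3049) and 7.04% of regions of 3 lists (76 of 1079). By library these were 15 of 105 in hypoxia 1 (14.3%, 8.22 to 22.5%), 0 of 1686 in hypoxia 2 (upper bound 0.219%) and 5 of 3457 in hypoxia 3 (0.145%). Of the 1244 regions of hypoxia 1, 1079 were regions of 3 lists. For its 14.3%, the 7.04% at regions of 3 lists is therefore a nearer comparison than the 1.19% over all regions. The counts move with the lists compared: without hypoxia 3 the regions of hypoxia 2 alone had 12 normoxia calls, and those of hypoxia 3 alone had 17 without hypoxia 2 and 9 without hypoxia 1. No test over libraries was made.

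All 20 shared their replicate number with the normoxia library: the 15 of hypoxia 1 were called in normoxia 1 and the 5 of hypoxia 3 in normoxia 3. The labels do not say what a shared number stands for. Normoxia 3 was the longest normoxia list, with 109 intervals against 70 in normoxia 1 and 32 in normoxia 2. It held calls at 15 regions of 2 hypoxia lists and at 73 of 3. For normoxia 1 these counts were 0 and 28, and for normoxia 2 they were 2 and 23. Whether numbers matched beyond what the make-up of the lists gives was not tested. The 15 regions of hypoxia 1 were all high in local background in both libraries, and none of the 45 others in hypoxia 1 had a normoxia call. Of the 70 intervals of normoxia 1, 39 lay in regions of all 3 hypoxia lists, 15 in regions of hypoxia 1 alone and 16 in no hypoxia region, 14 of these 16 with high background.

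The 15 regions had to pass the threshold in both libraries, so like values there follow in part from how they were picked, and they compare 1 library with 1 library. By the rule that chose members, hypoxia 2 and 3 had no call at any of them. Reads ran from 30 to 62 with a median of 42 in hypoxia 1 and from 28 to 61 with a median of 43 in normoxia 1. Corrected for genome-wide background, the ratio of hypoxia 1 to normoxia 1 was 0.785 to 1.22 with a median of 1.02, and it was above 1 at 8 of 15. Fold ran from 2.09 to 5.4 in hypoxia 1 and from 2.02 to 5.99 in normoxia 1. At chromosome 17: 22262660 to 22262781, hypoxia 1 had 59 reads and normoxia 1 had 56.

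**Figure D4:**
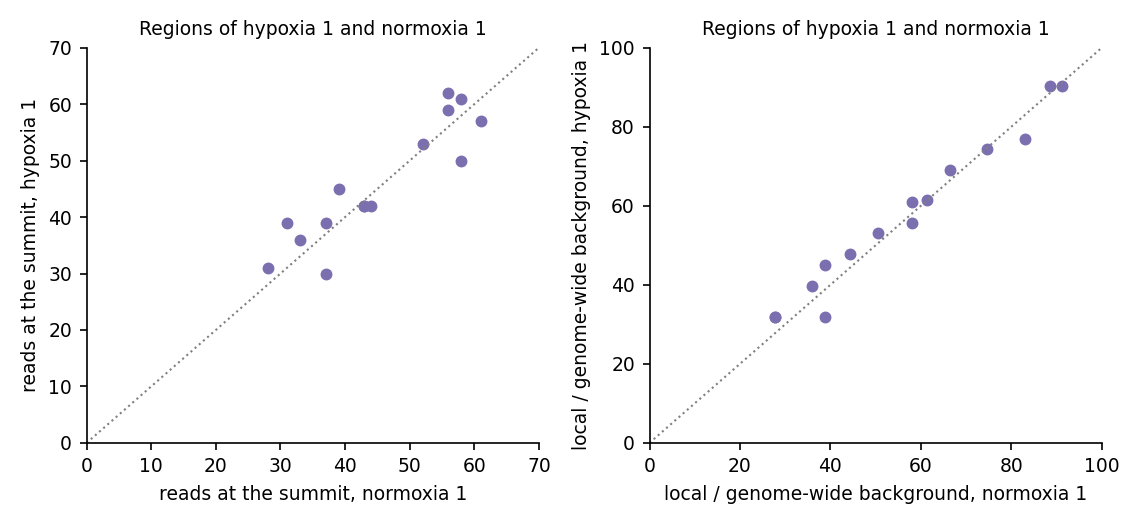
Reads at the summit (left) and local background over genome-wide background (right) at the 15 regions called in hypoxia 1 alone among hypoxia lists and in normoxia 1; x axis normoxia 1, y axis hypoxia 1, dotted line where both are equal. Points lie on both sides of the line, with depth-corrected read ratios of 0.785 to 1.22.

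The 5 regions shared by hypoxia 3 and normoxia 3 were of another kind, with background ratios from 1.0 to 2.53 in hypoxia 3. Chromosome 11: 65686713 to 65686935 had 14 reads at fold 7.95 in hypoxia 3 and 9 reads at fold 7.73 in normoxia 3. Chromosome 7: 128694854 to 128695306 had 15 and 8 reads at fold 7.53 and 6.55. At the other 3 the fold was higher in normoxia 3. Chromosome 1: 29330 to 29521 had 15 and 10 reads at fold 6.31 and 7.31. Chromosome 20: 45318140 to 45318527 had 14 and 8 reads at fold 4.62 and 4.78, and chromosome 10: 1281352 to 1281518 had 10 and 9 reads at fold 5.18 and 7.07. Reads of these libraries were extended to 167 and 47 bp, so neither reads nor folds are on 1 scale. Dividing by the genome-wide background, 0.886 reads in hypoxia 3 and 0.294 in normoxia 3, gave read ratios of 0.369 to 0.622. That background is itself counted over the extension, and per kb it was 5.31 and 6.26. These ratios are therefore not on 1 scale either and do not say which library had more signal.

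In hypoxia 3 the high background regions were gathered in the part of chromosome 2 that holds MYCN, whose copy number was not measured here. The window from 14 to 18 Mb of chromosome 2 held 48 members of hypoxia 3, 6 of hypoxia 2 and none of hypoxia 1. The lists had 84, 45 and 2 intervals there, in that order. Over all chromosomes, members were 45.7%, 29.2% and 8.44% of the regions of these libraries. Of the 48, 47 were high; they lay from 16076540 to 16594865, with 146 to 265 reads (median 187), a median background 144 times the genome-wide one and a fold of 1.35 to 1.84 (median 1.47). They made up 47 of the 54 high members of hypoxia 3. In hypoxia 2, 3 members there were high, with 205 to 218 reads, among them chromosome 2: 16500139 to 16500295 with 218 reads at fold 1.51. These regions combined large read numbers with a small excess over the local background. High background there was not particular to members. The megabase from 16 to 17 Mb also held 29 replicated regions. Over all its intervals the median background ratio was 152 in hypoxia 2 (37 intervals) and 149 in hypoxia 3 (77).

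The 2 highest-ranking high members of hypoxia 3 illustrate the contrast. Chromosome 2: 33141239 to 33141453, outside the window, had 66 reads at fold 3.28, and chromosome 2: 16460849 to 16461695, inside it, had 213 reads at fold 1.72. Without the window 3409 members of hypoxia 3 remained, with the same median of 11 reads and a median distance of 82.2 kb.

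Members of hypoxia 3 also crowded in some places without high background. A megabase of the genome held 10 or more members 18 times in hypoxia 3, the stretch at MYCN among them, and 0 times in hypoxia 1 and 2. These counts are not scaled for the number of members, which was 3457 in hypoxia 3, 105 in hypoxia 1 and 1686 in hypoxia 2. After the stretch at MYCN, the fullest was 228 to 229 Mb of chromosome 1, with 23 members between 228371708 and 228986372. These had 8 to 33 reads, a median background ratio of 4.22 and a median fold of 4.25, and 11 replicated regions lay in the same megabase. Over all intervals there, the median local background was 3.93 times genome-wide in hypoxia 3 (34 intervals), 1.8 in hypoxia 2 (11) and 2.16 in hypoxia 1 (6). At 104 to 105 Mb of chromosome 14, 16 members had 6 to 17 reads and a median background ratio of 1.0. That megabase also held 8 replicated regions, and hypoxia 3 had 24 intervals there against 9 in hypoxia 2.

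Between chromosomes, the balance of hypoxia 2 and hypoxia 3 members was uneven. The ratio of hypoxia 3 to hypoxia 2 members had a median of 2.21 over 23 chromosomes. It was lowest on chromosome 8 at 0.627 (74 against 118) and highest on chromosome 10 at 5.13 (323 against 63), and ran from 1.25 to 3.38 on the others. On chromosome 10, 58.2% of hypoxia 3 intervals were members and 21.5% of hypoxia 2 intervals. On chromosome 8 these shares were 29.8% and 40.5%.

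The excess ran along the whole of chromosome 10. In its 7 bins of 20 Mb, hypoxia 3 had 32 to 72 members and hypoxia 2 had 4 to 20, with more in hypoxia 3 in each bin. On chromosome 8, hypoxia 2 had more members in 7 of 8 bins, while in the last bin, from 140 Mb, hypoxia 3 had 19 and hypoxia 2 had 9. Chromosome 1 gave both patterns, with 59 against 11 from 220 to 240 Mb and 12 against 16 from 80 to 100 Mb.

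Local background moved with this on the same chromosomes. At regions that hypoxia 2 and 3 both called, the median background ratio on chromosome 8 was 1.97 in hypoxia 3 and 1.35 in hypoxia 2, a quotient of 1.46. On chromosome 10 it was 1.0 in hypoxia 3 and 1.22 in hypoxia 2, a quotient of 0.822, and the local background sat at the genome-wide floor for 82.7% of hypoxia 3 intervals and 25.9% of hypoxia 2 intervals. The quotient was 0.866 to 1.16 on the other chromosomes. Its part in the number of members was not tested.

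Across the 23 chromosomes, the log2 ratio of members had a Pearson r of −0.7 with the log2 quotient of backgrounds, and Spearman's rho was −0.362. These values describe 2 libraries over chromosomes that share them. Without chromosomes 8 and 10, r was −0.254 and rho −0.162 over 21, so the relation rests mainly on those chromosomes. Chromosomes 18 and X, with 88.9% and 82.7% of hypoxia 3 intervals at the floor, also had 77.1% and 85.5% of hypoxia 2 intervals there, and their ratios of members were 2.2 and 3.38.

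**Figure D5:**
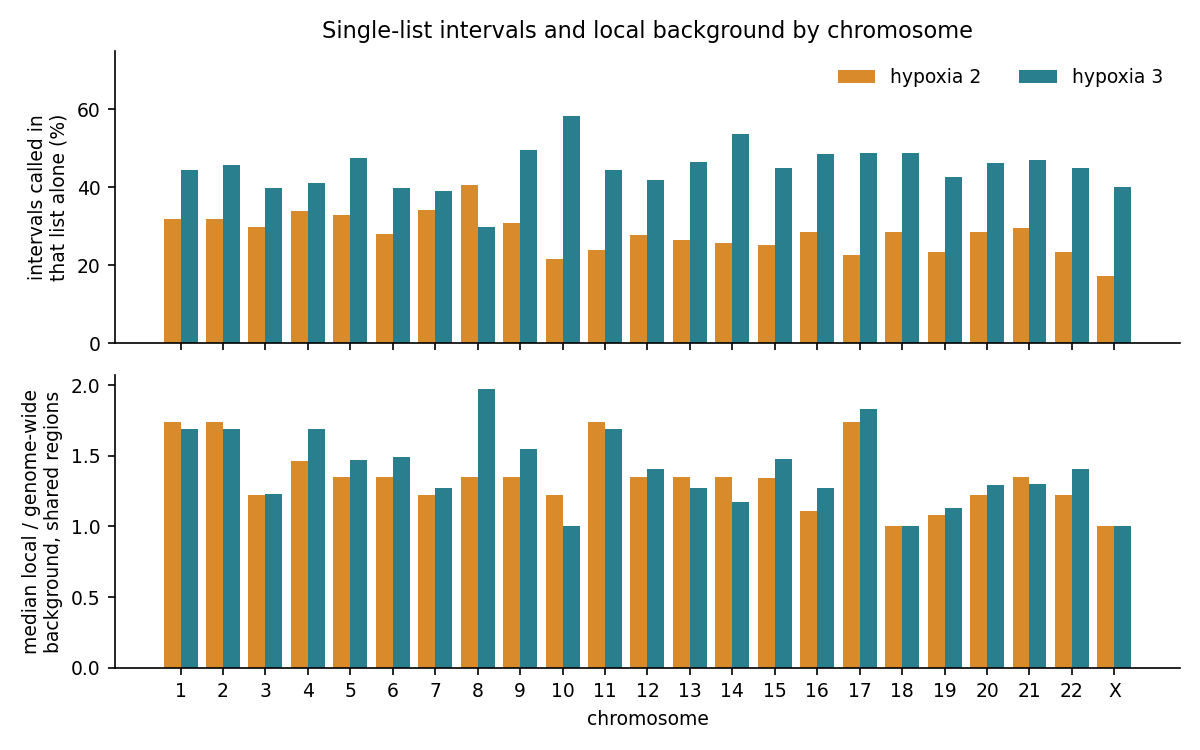
Top, percent of intervals called in that list alone on each chromosome for hypoxia 2 and hypoxia 3. Bottom, median local over genome-wide background at regions called in both libraries. Hypoxia 2 exceeds hypoxia 3 in the top panel on chromosome 8 (40.5% and 29.8%), where its background in the bottom panel is the lower one (1.35 and 1.97), and chromosome 10 shows the opposite order in both panels.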

How the data were processed

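Lists were narrowPeak tables, 1 for each of the 6 HIF-1α libraries; per the submitters' processing notes, BWA 0.7.17 and MACS2 were used with hg19. No source used here gives settings or duplicate filters. The deposited fold was taken as the ratio of summit reads plus 1 to local background plus 1. The deposited −log10 p and −log10 q are the caller's. The deposited score was 10 times −log10 q truncated to an integer in each of 16463 lines. Repeated lines of 1 interval were merged, keeping the summit of smallest p. Whole reads and background were solved from fold and the Poisson tail within 0.001 of −log10 p for 16463 lines (100%); 165 had 2 solutions and the closest was kept. Genome-wide background was the lowest local value of a list. Groups came from the sample titles. The members, the rule for named regions and all comparisons were chosen with earlier results of these data known. Named regions were, per library, the 3 of smallest p without and the 2 with high background (at least 10 times genome-wide), the farthest, the 3 nearest to and the 3 just past joining, and regions with a normoxia call; the rule allowed 6 of the last, and the count of 5 in hypoxia 3 is named in full. Shares have exact Clopper-Pearson 95% intervals. The code was tested on simulated lists. Python 3.11.15, numpy 2.4.6, pandas 2.3.3 and scipy 1.17.1 were used. No hg19 sequence or annotation was used, so planned motif, GC and promoter shares were not computed and no sequence is printed.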

Additional observations from a re-analysis of the deposited data

Results flagged for a closer look

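Contigs outside chromosomes 1 to 22 and X, which no comparison above used, also held regions called in 1 hypoxia list. There were 37 in hypoxia 1, 4 in hypoxia 2 and 20 in hypoxia 3, on chromosome Y and unplaced or alternate contigs. The hypoxia lists had 72, 34 and 61 intervals on these contigs and the normoxia lists 10, 0 and 1.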

How the results depend on the processing

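The count of 5248 was 3170 with −log10 q of at least 5 and 821 with lists of the same length; leaving out a hypoxia library gave 4901 to 6599. The share of 56.0% ran from 56.1% to 85.4% when a hypoxia library was left out (81.8% without hypoxia 3, 85.4% without hypoxia 2). The 20 normoxia calls became 3 with −log10 q of at least 5, 10 with fold of at least 4, 5 without high local background and 33 with lists of the same length; leaving out a library gave 5 to 32. The median of 11 reads became 23, and the median distance of 90.3 kb became 421 kb, with lists of the same length. Hypoxia 1, whose reads are on another scale, then gave 318 of the 821 members, so the 23 mixes scales. By library the median reads became 8, 24 and 26 in hypoxia 1, 2 and 3, from 22, 11 and 11. The median distance ran from 90.3 to 511 kb when a library was left out. Of 174 values per library under alternatives, 129 stayed and 45 moved. A count stayed if it was within 1.5 times the main count. Another value stayed if it differed by less than the SD of the 3 hypoxia libraries. Hypoxia 1 widens that SD, with a median background ratio of 21.2 against 1.22 in hypoxia 2 and 1.13 in hypoxia 3. Such values of hypoxia 2 and 3 could hardly move, so having stayed is a weak mark of stability. The 105 regions of hypoxia 1, whose intervals are narrower than those of the other lists, became 979 when 50% reciprocal overlap was required. Among intervals of at least 167 bp the 105 became 1. Leaving out chromosomes 8 and 10, or 14 to 18 Mb of chromosome 2, was chosen after seeing the data. By these wide limits it moved none of the values over all members. No paired analysis was possible because the members are defined among the hypoxia libraries alone and no value was tested between groups; calls shared with the same-numbered normoxia library are given as counts. Alternatives for motif, GC and promoter shares were not run, for want of an hg19 genome. Depth limits a single interval: most members rest on fewer than 15 reads.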
